A study of Mus musculus with 9 samples.

Results

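The genes described here are the nuclear-encoded genes of the mitochondrial respiratory chain and ATP synthase, read in the sciatic nerves of young PINCH1 mutant, PINCH2 mutant and control mice. They were taken from the deposited count table by gene symbol: every entry (1 row of that table) whose symbol begins with Nduf, Cox4 to Cox8, Uqcr or Atp5, and Sdha, Sdhb, Sdhc and Sdhd, without pseudogenes (symbols holding -ps) and opposite-strand transcripts (symbols ending in os). The rule gave 90 of 25965 entries and used no measured value. By known function, 36 of them encode subunits of complex I, 4 of complex II, 8 of complex III, 20 of complex IV and 15 of complex V, and 5 encode complex I assembly factors. The remaining 2 are not subunits: Cox4nb is an older symbol of Emc8, a gene of the endoplasmic reticulum membrane complex that lies head to head with Cox4i1, and Atp5s is a factor related to ATP synthase.

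PINCH1 and PINCH2, encoded by Lims1 and Lims2, are LIM-domain adaptor proteins that bind integrin-linked kinase at cell-matrix adhesions. RNA was sequenced from 3 groups of C57BL/6 mice, PINCH1 mutants, PINCH2 mutants and control littermates, with 3 libraries a group, each from a pool of 4 sciatic nerves of 1 male and 1 female. The labels give the age as postnatal day 15 in one field and 14 in another, and the epineurium had been removed. How the mutants were made, any Cre driver and the alleles of the controls were not given in the sources used here. Separate pools are the replicates, so p-values rest on the spread between pools together with the counting error. In whole nerve, fewer cells of a type and less RNA per cell cannot be told apart.

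The respiratory chain sits in the inner mitochondrial membrane. Complex I takes electrons from NADH and complex II from succinate, both pass them through coenzyme Q to complex III, cytochrome c carries them on to complex IV, which reduces oxygen, and complex V uses the proton gradient to make ATP. Subunits of complexes I, III, IV and V are encoded partly by the mitochondrial genome and mostly by nuclear genes, and complex II is wholly nuclear. In peripheral nerve, axons rely on mitochondrial ATP for conduction, and Schwann cells, the myelin-forming glia, use both glycolysis and mitochondrial metabolism. Many nuclear genes of the chain share binding letters for the transcription factors NRF1, GABP (of the ETS family) and YY1 close to their start sites.

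Those letters were looked up in RefSeq promoter windows of build GRCm38.p6, each holding 250 bases before and 50 after a gene's start. A total of 74 of the 90 members were matched, with 80 windows. The NRF1 letters GCGCATGC, on either strand, stood in 13.8% of the members' windows and in 2.71% of all 32851 windows. The ETS letters CGGAAG stood in 38.8% and 16.9%, and the YY1 letters AAGATGGC in 15.0% and 2.75%. A match describes letters and shows no binding. The stretches below show 1 or 2 members of each complex, in the direction of the gene, with the letters that match on either strand in capitals. Those of Cox6a1 lie in a palindrome, so that the NRF1 letters also match there on the other strand, in an overlapping run. Atp5j is shown because its start region is shared with Gabpa, which encodes a subunit of GABP itself.
Ndufa6 (complex I, NRF1, chr15:82354356-82354385, minus strand): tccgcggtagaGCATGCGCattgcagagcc
Ndufs3 (complex I, ETS, chr2:90904731-90904758, minus strand): ccgcgtccgccCGGAAGaagagtcactg
Sdhb (complex II, NRF1, chr4:140961206-140961235, plus strand): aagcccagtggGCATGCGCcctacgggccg
Uqcrh (complex III, ETS, chr4:116075071-116075091, minus strand): agtatgccgcaCTTCCGgcca
Cox6a1 (complex IV, NRF1, chr5:115349102-115349131, minus strand): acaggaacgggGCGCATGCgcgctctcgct
Atp5j (complex V, ETS, chr16:84835020-84835047, minus strand): gctgagggaccCGGAAGcacttaccctc
Atp5j (complex V, YY1, chr16:84835046-84835075, minus strand): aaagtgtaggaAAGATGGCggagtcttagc

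The libraries held 957828 to 1204964 counts, and counts were detected for 9674 to 11240 entries. The 90 members together took 0.0710% to 0.103% of a library: 940, 708 and 883 counts in the PINCH1 mutant libraries, 691, 1148 and 823 in the PINCH2 mutant libraries and 798, 928 and 1132 in the control libraries. Members were therefore counted thinly. The median member had 42 counts over all 9 libraries, 22 members had under 20, and 4 (Cox4i2, Cox6a2, Cox7b2 and Cox8c) had none in any library, where a count of 0 allows up to 2.49 to 3.13 CPM (counts scaled to a fixed library total). Intervals and limits of this kind cover counting error only.

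Lims1 and Lims2, the genes of the mutated proteins, were too low to check the genotypes. Lims1 had 0, 1 and 3 counts in PINCH1 mutant, 0, 1 and 9 in PINCH2 mutant and 3, 7 and 7 in control libraries. Lims2 had 5, 3 and 1 counts in PINCH1 mutant, 5, 1 and 1 in PINCH2 mutant and 9, 1 and 5 in control libraries.

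What an entry's counts stand for is limited by the genes on the other strand. Exons of 30 of the 90 members (33.3%, against 24.7% of all entries) overlap those of a gene on the opposite strand in the GENCODE M21 annotation, here called the partner. Since the strandedness of the kit and the strand setting of the counting were not given in the sources used here, counts under a member's name cannot be told apart from counts of RNA from the other strand. Members with a partner held 61.6% of all member counts, and over the whole table the 24.7% of entries with a partner held 88.4% of all counts. Among the mitochondrially encoded subunits, mt-Nd6, the 1 gene of these on the other strand from the rest, had 949647 counts over 9 libraries, against 27803 for mt-Cytb. Counts may therefore have been taken on the strand opposite to the named gene. The files do not settle this, and it applies to every count given here, of members and of other entries, also where an entry has no partner. The overlaps span 4 to 1955 bp: 16 pairs are divergent (they overlap at their starts), 11 are convergent (at their ends) and in 3 one gene lies inside the span of the other.

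Of the 25 members whose partner has an entry of its own, the partner had more counts in 15, by more than 10 times in 7, and the member had more in 9, both being at 0 in 1. The examples that follow were chosen after their values were seen. Ndufb5, an accessory subunit of complex I, had 12 counts over the 9 libraries and its divergent partner Mrpl47, a mitochondrial ribosomal protein gene, 5720. Ndufs3, a core subunit of the arm of complex I that faces the matrix, had 124 and Kbtbd4 4155. Atp5j, a stalk subunit of ATP synthase, had 286 and Gabpa 3523.

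The reverse held for Cox6c and Atp5f1, the members with the most counts. It did not hold for Ndufs1, the third by counts, with 490 against 3071 for its partner Gm11602. Cox6c, a small subunit of complex IV, had 1459 counts and Vps13b, which converges on it, 47. Atp5f1, which encodes subunit b of the peripheral stalk of ATP synthase, had 878 and Wdr77 29. In all, the 23 partner entries that are not members held 29467 counts over the 9 libraries, against 4624 for their members.

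**Figure D1:**
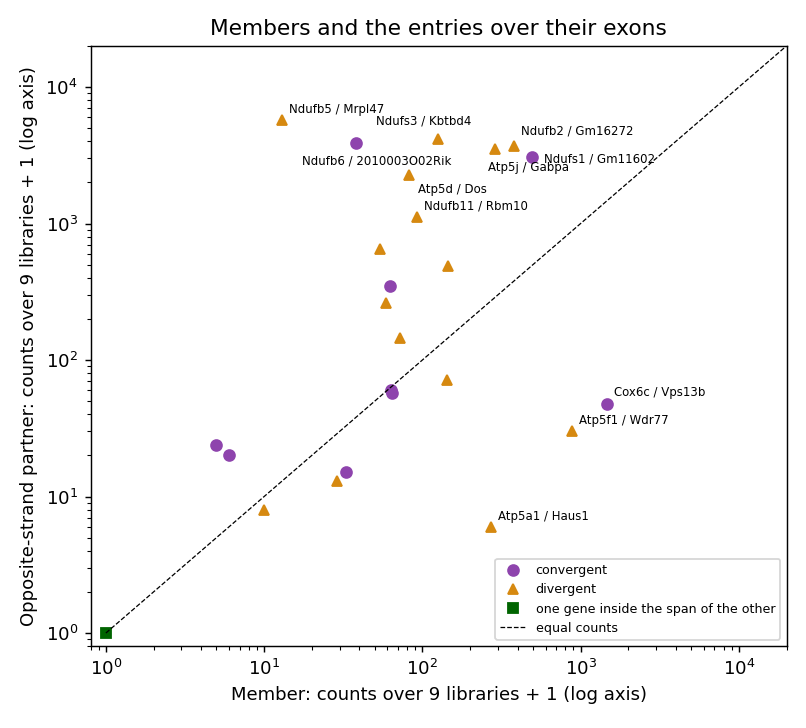
Counts of each member (horizontal, log axis) and of its opposite-strand partner (vertical, log axis), both summed over 9 libraries plus 1, for the 25 members whose partner has an entry. Marker shapes give the geometry of the pair and the dashed line equal counts; partners such as Mrpl47 (5720 counts) lie far above the line and Cox6c (1459 counts) and Atp5f1 (878 counts) far below it.

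With edgeR's filter on low counts, 24 members could be tested among 4738 entries: 9 of complex I, Sdha of complex II, Uqcrh of complex III, 5 of complex IV and 8 of complex V. The other 66, all 5 assembly factors among them, were too low. The lowest tested member had 79 counts over the 9 libraries and the highest untested one 71. Levels below are CPM scaled by the trimmed mean of M-values (TMM), and fold changes are edgeR log2 fold changes with their standard error (SE).

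No tested member differed between genotypes by edgeR's quasi-likelihood test at a Benjamini-Hochberg adjusted p under 0.05 in any of the 3 comparisons, and neither DESeq2 nor limma-voom called any. In PINCH1 mutant against control, 0 of 24 members passed, where 0.0633% of all tested entries did. At an unadjusted p under 0.05, 3 members passed (Ndufv3 higher, Cox4i1 and Cox8a lower), against 6.37% of all tested entries. Adjusted p-values of the members ran from 0.733 to 0.997.

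In PINCH2 mutant against control, 0 of 24 members passed, where 0.0211% of all tested entries did. One member, Atp5d, was lower at an unadjusted p under 0.05, against 4.26% of all tested entries, and every member had an adjusted p of 0.999. Between PINCH1 mutant and PINCH2 mutant, 0 of 24 passed, where 0.0844% of all tested entries did. Atp5d, higher in PINCH1 mutants, was the 1 member at an unadjusted p under 0.05, against 6.35% of all tested entries. Adjusted p-values ran from 0.756 to 1.

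Groups of libraries that do not overlap were counted as well. Between PINCH1 mutant and control libraries there was no overlap for 6 members, Ndufv3 higher and Cox6a1, Cox4i1, Cox8a, Atp5a1 and Ndufb11 lower, against 13.6% of all tested entries. Between PINCH2 mutant and control libraries there was none for 4, Ndufs7 higher and Cox6a1, Atp5d and Atp5a1 lower, against 9.08%. Between PINCH1 and PINCH2 mutant libraries there was none for 4, Atp5d higher and Ndufs1, Ndufs3 and Cox4i1 lower, against 10.9%. The comparisons share libraries, so these counts are not independent of each other.

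The 95% confidence intervals, which hold the counting error and the spread between pools together, were wide for most members. The whole interval lay within a 2-fold change either way for 4 of 24 members in PINCH1 mutant against control (Ndufs1, Atp5f1, Atp5b and Cox6c). It did so for 6 in PINCH2 mutant against control (those 4 with Ndufb2 and Cox4i1). Between the mutants it did so for 6 (Atp5f1, Atp5b, Atp5j, Atp5a1, Ndufb2 and Cox6c). For the other members the interval reached beyond a 2-fold change on at least one side.

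**Figure D2:**
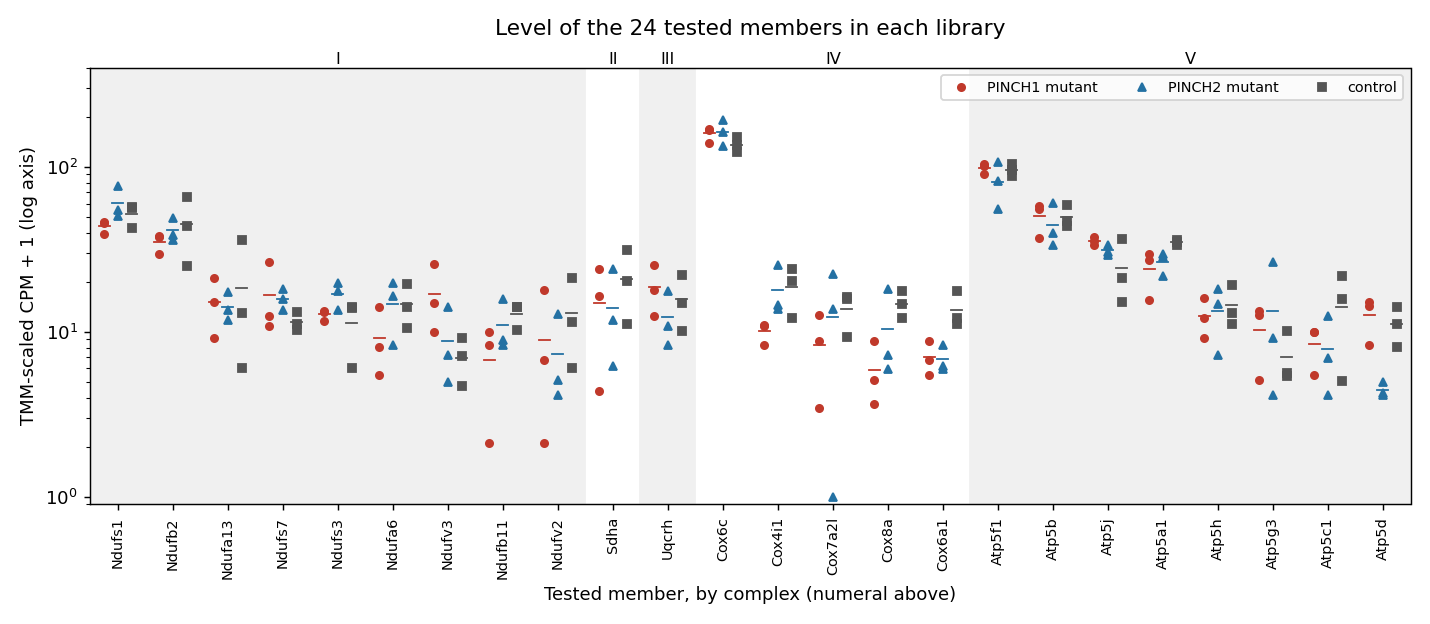
TMM-scaled CPM plus 1 (log axis) of the 24 tested members in each of 9 libraries, ordered by complex. Circles are PINCH1 mutant, triangles PINCH2 mutant and squares control libraries, 3 each, with group means as bars; Cox6c and Atp5f1 stand above the rest, and Cox8a, Cox6a1 and Atp5a1 show PINCH1 mutant libraries below the control libraries.

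Complex I opens the chain. Its 36 members held 30.7% of the member counts, and 14 of them have a partner. Ndufs1, the largest subunit of complex I and a carrier of iron-sulfur clusters, had the most counts: 51, 40 and 47 in PINCH1 mutant libraries, 52, 60 and 77 in PINCH2 mutant libraries and 55, 45 and 63 in control libraries. The PINCH1 mutant libraries lay within the control range or just below it and the PINCH2 mutant libraries reached above it. The log2 fold change was -0.25 (SE 0.28) in PINCH1 mutant against control and 0.23 (SE 0.28) in PINCH2 mutant against control. All PINCH1 mutant libraries were below all PINCH2 mutant libraries in CPM, at -0.48 (SE 0.28, edgeR adjusted p 0.888). The 3' end of Ndufs1 overlaps Gm11602 (489 bp), a long noncoding RNA named Ino80dos in GENCODE, which had 3071 counts against 490 for Ndufs1, and its exons also overlap those of Eef1b2.

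Ndufb2, an accessory subunit, had 32, 33 and 45 counts in PINCH1 mutant libraries, 36, 43 and 49 in PINCH2 mutant libraries and 64, 26 and 49 in control libraries. The control libraries spread over both mutant groups. It overlaps Gm16272 and Braf on the other strand, and Gm16272 had 3717 counts against its own 377. Ndufa13, also known as GRIM-19, had 16, 18 and 10 counts in PINCH1 mutant, 12, 20 and 11 in PINCH2 mutant and 5, 13 and 40 in control libraries, the widest spread being among controls. Its partner Tssk6, a testis-specific kinase gene, had 490 counts against 145.

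Ndufv3, an accessory subunit of the module that oxidises NADH, was the 1 member of complex I with an unadjusted p under 0.05. It had 28, 8 and 17 counts in PINCH1 mutant libraries, 6, 16 and 4 in PINCH2 mutant libraries and 8, 4 and 7 in control libraries. Its level was 15.9 ± 8.20 CPM in PINCH1 mutants, 7.76 ± 4.77 CPM in PINCH2 mutants and 5.97 ± 2.22 CPM in controls (SD, n = 3 each). The lowest PINCH1 mutant library, at 8.94 CPM, was just above the highest control library, at 8.12 CPM, and PINCH2 mutant libraries overlapped both. The log2 fold change in PINCH1 mutant against control was 1.41 (SE 0.63, p 0.0361, edgeR adjusted p 0.742), and 0.94 without PINCH1 mutant replicate 1. In PINCH2 mutant against control it was 0.40 (SE 0.66). Ndufv3 (chromosome 17, 31520115 to 31531321, plus strand) has no partner, and the nearest opposite-strand gene, Wdr4, lies 135 bp away.

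Ndufb11, an X-linked accessory subunit, had 10, 1 and 9 counts in PINCH1 mutant, 7, 18 and 8 in PINCH2 mutant and 13, 10 and 15 in control libraries. All PINCH1 mutant libraries were below the control libraries in CPM, with a log2 fold change of -0.97 (SE 0.67, edgeR adjusted p 0.847). It overlaps Rbm10 by 117 bp, which had 1113 counts against 91. Ndufs7, an iron-sulfur subunit, had 11, 23 and 14 counts in PINCH1 mutant, 12, 21 and 15 in PINCH2 mutant and 10, 10 and 14 in control libraries, where in CPM the PINCH2 mutant libraries were all above the controls (log2 fold change 0.49, SE 0.48, edgeR adjusted p 0.999). For Ndufs3 the counts were 12, 11 and 15 in PINCH1 mutant, 12, 23 and 17 in PINCH2 mutant and 5, 14 and 15 in control libraries, and the CPM of PINCH1 mutants lay below that of PINCH2 mutants (-0.45, SE 0.48, edgeR adjusted p 0.968).

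Summed over all 36 complex I members, the level was 235, 227 and 217 CPM in PINCH1 mutant libraries, 213, 305 and 296 CPM in PINCH2 mutant libraries and 262, 238 and 302 CPM in control libraries. The mean was 227 ± 8.96 CPM in PINCH1 mutants, 271 ± 50.4 CPM in PINCH2 mutants and 267 ± 32.2 CPM in controls (SD, n = 3 each). Each PINCH1 mutant library was below each control library, the nearest pair by a narrow margin, and the log2 ratio of the means was -0.24. Without the 14 members that have a partner it was -0.09 and the groups overlapped.

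Complex II links the chain to the tricarboxylic acid cycle. Its 4 genes held 3.70% of the member counts, and none has a partner. Sdha, the flavoprotein that oxidises succinate, had 26, 3 and 19 counts in PINCH1 mutant libraries, 5, 28 and 11 in PINCH2 mutant libraries and 19, 11 and 35 in control libraries. Every group held a low and a high library, and the log2 fold change was -0.48 (SE 0.57) in PINCH1 mutant against control and -0.59 (SE 0.58) in PINCH2 mutant against control.

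Sdhc, a membrane anchor of complex II, was too low for the main test. It had 4, 1 and 3 counts in PINCH1 mutant libraries, 0, 7 and 9 in PINCH2 mutant libraries and 5, 19 and 17 in control libraries. In a fit without the filter, over 15595 entries, its log2 fold change in PINCH1 mutant against control was -2.30 (SE 0.87, p 0.00843, edgeR adjusted p 0.806), the smallest unadjusted p of any member in that fit. In PINCH2 mutant against control it was -1.31 (SE 0.81, edgeR adjusted p 0.852).

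Sdhd, the other membrane anchor, had 11, 1 and 5 counts in PINCH1 mutant, 3, 7 and 5 in PINCH2 mutant and 1, 5 and 11 in control libraries. Sdhb, the iron-sulfur subunit, had 0, 7 and 1 counts in PINCH1 mutant, 6, 5 and 1 in PINCH2 mutant and 3, 4 and 0 in control libraries. Neither was tested, and their groups overlapped. The summed level of complex II was 24.3 ± 11.6 CPM in PINCH1 mutants, 26.2 ± 12.0 CPM in PINCH2 mutants and 39.8 ± 13.7 CPM in controls (SD, n = 3 each), with groups that overlapped.

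Complex III passes electrons from coenzyme Q to cytochrome c. Its 8 members held 5.08% of the member counts. Uqcrh, the hinge protein that binds cytochrome c1, had 19, 22 and 14 counts in PINCH1 mutant libraries, 7, 12 and 17 in PINCH2 mutant libraries and 9, 23 and 16 in control libraries. The groups overlapped, with log2 fold changes of 0.23 (SE 0.47) in PINCH1 mutant against control, -0.39 (SE 0.49) in PINCH2 mutant against control and 0.62 (SE 0.49, edgeR adjusted p 0.939) in PINCH1 mutant against PINCH2 mutant.

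Uqcrc2, a core protein of complex III, had 1, 5 and 13 counts in PINCH1 mutant, 3, 8 and 3 in PINCH2 mutant and 1, 8 and 19 in control libraries, and its convergent partner Pdzd9 had 346 over all libraries against 61. Uqcrb, which helps bind ubiquinone, had 9, 2 and 1 counts in PINCH1 mutant, 1, 5 and 9 in PINCH2 mutant and 6, 9 and 11 in control libraries, and its partner Gm10767 had 646 against 53. Neither member was tested. The summed level of complex III was 40.4 ± 3.67 CPM in PINCH1 mutants, 34.9 ± 11.4 CPM in PINCH2 mutants and 50.2 ± 16.8 CPM in controls (SD, n = 3 each), and the groups overlapped.

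Complex IV, cytochrome c oxidase, held 27.4% of the member counts over 20 genes, most of them under Cox6c. Cox6c had 187, 152 and 170 counts in PINCH1 mutant libraries, 184, 198 and 134 in PINCH2 mutant libraries and 148, 147 and 139 in control libraries. In CPM, 4 of the 6 mutant libraries were above all controls and the groups overlapped. The log2 fold change was 0.22 (SE 0.20, 95% interval -0.19 to 0.63) in PINCH1 mutant against control and 0.25 (SE 0.20, 95% interval -0.16 to 0.66) in PINCH2 mutant against control.

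The other 4 tested subunits had fold changes below 0 in PINCH1 mutant against control. Cox8a, the ubiquitous form of the smallest subunit, had 3, 7 and 5 counts in PINCH1 mutant libraries, 6, 21 and 5 in PINCH2 mutant libraries and 11, 15 and 19 in control libraries. Its level was 4.86 ± 2.66 CPM in PINCH1 mutants, 9.46 ± 6.74 CPM in PINCH2 mutants and 13.9 ± 2.71 CPM in controls (SD, n = 3 each). Each PINCH1 mutant library was below each control library, and PINCH2 mutant libraries held both low and high values. The log2 fold change was -1.53 (SE 0.67, p 0.0324, edgeR adjusted p 0.733) in PINCH1 mutant against control and -0.53 (SE 0.62) in PINCH2 mutant against control. Cox8a (chromosome 19, 7215158 to 7217616, minus strand) has no partner, and the nearest opposite-strand gene, Macrod1, is 17096 bp away.

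Cox4i1, the largest nuclear-encoded subunit of complex IV and its ubiquitous isoform, had 11, 9 and 9 counts in PINCH1 mutant libraries, 13, 30 and 13 in PINCH2 mutant libraries and 11, 25 and 22 in control libraries. Its level was 9.07 ± 1.49 CPM in PINCH1 mutants, 17.0 ± 6.60 CPM in PINCH2 mutants and 17.8 ± 6.04 CPM in controls (SD, n = 3 each). All PINCH1 mutant libraries were below the libraries of both other groups, with log2 fold changes of -0.98 (SE 0.47, p 0.0481, edgeR adjusted p 0.759) against control and -0.92 (SE 0.47, edgeR adjusted p 0.824) against PINCH2 mutant. PINCH2 mutant against control gave -0.06 (SE 0.44). Cox4i1 (chromosome 8, 120668290 to 120674209, plus strand) overlaps Cox4nb by 154 bp at the start. That gene had 8, 5 and 10 counts in PINCH1 mutant, 7, 13 and 9 in PINCH2 mutant and 5, 9 and 5 in control libraries.

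Cox6a1, the form of subunit VIa found outside heart and skeletal muscle, had 5, 7 and 7 counts in PINCH1 mutant libraries, 5, 9 and 5 in PINCH2 mutant libraries and 11, 11 and 19 in control libraries. All 6 mutant libraries were below all control libraries. The log2 fold change was -1.08 (SE 0.65, edgeR adjusted p 0.810) in PINCH1 mutant against control and -1.10 (SE 0.65, edgeR adjusted p 0.999) in PINCH2 mutant against control, and both comparisons use the same controls. Cox7a2l, a factor that joins complexes III and IV into supercomplexes, had 13, 7 and 3 counts in PINCH1 mutant, 0, 26 and 13 in PINCH2 mutant and 15, 9 and 17 in control libraries, with a log2 fold change of -0.82 (SE 0.79) in PINCH1 mutant against control.

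Complex IV has the most tissue-specific isoforms, and the counts were mostly under the ubiquitous forms. Cox4i1 had 143 counts over the 9 libraries and Cox4i2, the lung isoform, 0. Cox6a1 had 79 and Cox6a2, of heart and skeletal muscle, 0. Cox8a had 92 counts, Cox8b, a muscle form, 1, and Cox8c, of testis, 0. Cox6b1 had 51 and the testis form Cox6b2 3. Among the Cox7a genes, Cox7a2l had 103 counts, the ubiquitous Cox7a2 29 and the muscle form Cox7a1 9, and Ndufa4, now placed in complex IV, had 59 against 5 for its relative Ndufa4l2. Near-identical copies can share reads, so counts within these families are uncertain.

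The low counts of muscle isoforms can be set beside muscle markers, under the same limit on strand. A marker at 0 therefore does not show that a cell type was absent. The summed level of 14 skeletal muscle markers was 3.57 to 6.70 CPM in PINCH1 mutant, 3.28 to 9.85 CPM in PINCH2 mutant and 3.05 to 8.73 CPM in control libraries, with Acta1, Myh2, Tnni2, Mb and Tnnc2 at 0 throughout. That of 10 brown and white adipocyte markers was 6.24 to 14.5 CPM in PINCH1 mutant, 5.74 to 12.5 CPM in PINCH2 mutant and 4.06 to 6.44 CPM in control libraries, with Adipoq, Cidea, Ucp1, Plin1 and Cfd at 0.

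The summed level of complex IV was 230, 235 and 183 CPM in PINCH1 mutant libraries, 237, 270 and 211 CPM in PINCH2 mutant libraries and 229, 233 and 229 CPM in control libraries. These groups overlapped, and Cox6c made up most of each sum. Without Cox6c, a split made after the values were seen, the sum was 63.3, 64.8 and 44.1 CPM in PINCH1 mutant libraries, 45.8, 108 and 78.8 CPM in PINCH2 mutant libraries and 79.2, 97.6 and 107 CPM in control libraries. PINCH1 mutant libraries were then all below the controls, with a log2 ratio of the means of -0.72, and PINCH2 mutant libraries spread over most of the range of both. Over the 15 complex IV genes with no partner, the log2 ratio was -0.68 in PINCH1 mutant against control and -0.40 in PINCH2 mutant against control.

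**Figure D3:**
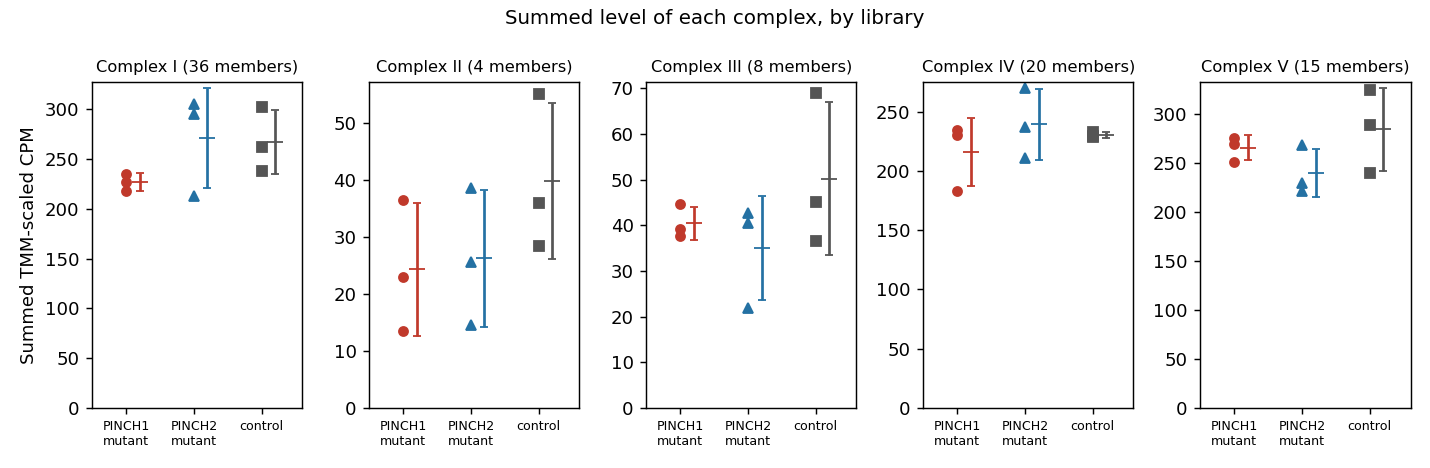
Summed TMM-scaled CPM of all members of each complex in each library, with the mean and SD of 3 libraries beside the points. Groups run from PINCH1 mutant to PINCH2 mutant to control, axes start at 0 and differ between panels; complex I shows the 3 PINCH1 mutant libraries (217 to 235 CPM) below the controls (238 to 302 CPM), and in the other panels the groups overlap.

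Complex V, the ATP synthase, held 31.7% of the member counts over 15 genes, of which 8 were tested. Atp5f1 had 101, 90 and 126 counts in PINCH1 mutant libraries, 102, 99 and 55 in PINCH2 mutant libraries and 93, 112 and 100 in control libraries. Only PINCH2 mutant replicate 3 stood apart, below the rest, and the log2 fold change was 0.04 (SE 0.24, 95% interval -0.46 to 0.54) in PINCH1 mutant and -0.24 (SE 0.24, 95% interval -0.74 to 0.26) in PINCH2 mutant against control. Its exons overlap those of Wdr77 and Gm42890.

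Atp5b, the catalytic beta subunit, had 64, 49 and 44 counts in PINCH1 mutant libraries, 37, 73 and 33 in PINCH2 mutant libraries and 45, 63 and 49 in control libraries. The ranges were nearly the same, and the log2 fold change in PINCH1 mutant against control was 0.00 (SE 0.31, 95% interval -0.64 to 0.65). It has no partner, with Gm47438 303 bp away. Atp5j had 41, 31 and 40 counts in PINCH1 mutant libraries, 27, 40 and 30 in PINCH2 mutant libraries and 14, 22 and 41 in control libraries, where only controls reached low values. Its log2 fold change was 0.55 (SE 0.35, edgeR adjusted p 0.833) in PINCH1 mutant against control, and that of Gabpa, printed above as its divergent partner, was 0.10 (SE 0.16, edgeR adjusted p 0.964).

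Atp5a1, the alpha subunit, had 32, 13 and 32 counts in PINCH1 mutant libraries, 20, 35 and 28 in PINCH2 mutant libraries and 32, 37 and 40 in control libraries. Its level was 23.1 ± 7.50 CPM in PINCH1 mutants, 25.7 ± 4.27 CPM in PINCH2 mutants and 33.8 ± 1.23 CPM in controls (SD, n = 3 each). All 6 mutant libraries were below the controls in CPM, and the log2 fold changes were -0.54 (SE 0.34, edgeR adjusted p 0.816) in PINCH1 mutant and -0.40 (SE 0.34, edgeR adjusted p 0.999) in PINCH2 mutant. Its partner Haus1 had 5 counts in all against 269.

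Atp5d, the delta subunit of the central stalk, had the smallest unadjusted p of any tested member. It had 16, 12 and 9 counts in PINCH1 mutant libraries, 3, 4 and 4 in PINCH2 mutant libraries and 7, 11 and 15 in control libraries. Its level was 11.7 ± 3.76 CPM in PINCH1 mutants, 3.45 ± 0.436 CPM in PINCH2 mutants and 10.1 ± 2.99 CPM in controls (SD, n = 3 each). PINCH2 mutant libraries were below all others, close to the 3 counts that a count of 0 allows, while PINCH1 mutant and control libraries overlapped. The log2 fold change was 1.72 (SE 0.69, p 0.0215, edgeR adjusted p 0.756) in PINCH1 mutant against PINCH2 mutant and -1.53 (SE 0.70, p 0.0391, edgeR adjusted p 0.999) in PINCH2 mutant against control. Atp5d (chromosome 10, 80138632 to 80145818, plus strand) overlaps Dos, named Cbarp in GENCODE, by 68 bp at the start, and Dos had 2270 counts against 81, with a log2 fold change of -0.04 (SE 0.21) in PINCH2 mutant against control.

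Atp5c1, the gamma subunit that turns within the enzyme, had 5, 8 and 11 counts in PINCH1 mutant, 3, 14 and 6 in PINCH2 mutant and 4, 16 and 24 in control libraries. The membrane ring of subunit c is encoded by 3 genes whose mature proteins are the same. Atp5g3 had 13, 11 and 5 counts in PINCH1 mutant, 3, 10 and 26 in PINCH2 mutant and 9, 5 and 5 in control libraries, with a log2 fold change of 1.02 (SE 0.74, edgeR adjusted p 0.999) in PINCH2 mutant against control that rests mostly on replicate 3. Atp5g2 had 0, 3 and 5 counts in PINCH1 mutant, 3, 5 and 7 in PINCH2 mutant and 7, 9 and 8 in control libraries, and Atp5g1 had 0, 3 and 3 in PINCH1 mutant, 0, 3 and 1 in PINCH2 mutant and 0, 7 and 9 in control libraries. Both were too low to test, and reads may be split among these copies.

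The summed level of complex V was 265 ± 12.7 CPM in PINCH1 mutants, 240 ± 24.8 CPM in PINCH2 mutants and 284 ± 42.3 CPM in controls (SD, n = 3 each), with groups that overlapped. Summed over all 90 members it was 784 ± 58.4 CPM in PINCH1 mutants, 823 ± 112 CPM in PINCH2 mutants and 884 ± 92.7 CPM in controls (SD, n = 3 each), again with overlap.

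Divided by the exon length of the named gene, the order of levels differed from that of counts. This order holds for entries as counted, and compares the genes themselves only if the counts came from the named strand. Of those given here, Cox6c, Atp5f1, Ndufa13, Ndufa2 and Ndufs1 have a partner. Averaged over 9 libraries, Cox6c stood first at 42.6 CPM per kilobase and Atp5f1 second at 22.2, followed by Cox8a at 15.2, Ndufa13 at 11.9, Uqcrh at 11.8, Cox6a1 at 11.6, Ndufa2 at 11.4 and Atp5b at 11.1. Ndufs1, the third by counts, ranked 20 by this measure, since its exons sum to 8086 bp. The 5 members with the most counts (Cox6c, Atp5f1, Ndufs1, Atp5b and Ndufb2) held 45.5% of all member counts.

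The complexes were also set side by side by the median log2 fold change of their tested members. For PINCH1 mutant against control it was -0.33 over 9 complex I members (6 below 0), -0.98 over 5 of complex IV (4 below 0) and 0.02 over 8 of complex V (3 below 0). For PINCH2 mutant against control these medians were 0.02, -0.14 and -0.20, and in PINCH1 mutant against PINCH2 mutant -0.24, -0.68 and 0.13. The medians of complex IV moved with single libraries. In PINCH1 mutant against control it was -0.61 without PINCH1 mutant replicate 3, and in PINCH2 mutant against control -0.01 without control replicate 3. Without PINCH2 mutant replicate 2 the medians were -0.99 in PINCH2 mutant against control and -0.01 in PINCH1 mutant against PINCH2 mutant, and without PINCH2 mutant replicate 1 they were 0.10 and -0.99. The median of complex I in PINCH2 mutant against control was -0.09 without PINCH2 mutant replicate 2 and -0.03 without PINCH2 mutant replicate 3. That of complex V in PINCH1 mutant against control was -0.05 without PINCH1 mutant replicate 1, -0.07 without PINCH1 mutant replicate 2 and -0.04 without control replicate 1, and in PINCH1 mutant against PINCH2 mutant -0.01 without PINCH2 mutant replicate 3. Complexes II and III had 1 tested member each, given above. Over all 24 members the median was -0.29 in PINCH1 mutant against control (14 below 0), -0.15 in PINCH2 mutant against control (16 below 0) and -0.01 in PINCH1 mutant against PINCH2 mutant (12 below 0). The first was -0.03 without control replicate 3, the second -0.46 without PINCH2 mutant replicate 2, and the third 0.18 without PINCH2 mutant replicate 2 and 0.04 without PINCH1 mutant replicate 3. Over all tested entries the same medians were -0.02, 0.00 and -0.02.

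In PINCH1 mutant against control, the medians differed between entries with and without a partner. Over all tested entries, the median in PINCH1 mutant against control was 0.05 where there is a partner and -0.17 where there is none. Among the tested members it was -0.25 for the 11 that have one (6 below 0) and -0.48 for the other 13 (8 below 0). With and without a partner, PINCH2 mutant against control gave 0.04 and -0.12 over all tested entries and -0.12 and -0.16 over the members. PINCH1 mutant against PINCH2 mutant gave -0.01 and -0.06 over all tested entries, but -0.14 and 0.04 over the members, in the other direction. The 13 partner entries tested had a median of 0.24 in PINCH1 mutant against control (3 below 0). None was called there, the lowest adjusted p being 0.650 by edgeR's quasi-likelihood test. Summed over 23 partner entries, the level was 3206, 3425 and 3126 CPM in PINCH1 mutant libraries, 2805, 3186 and 2980 CPM in PINCH2 mutant libraries and 3026, 2972 and 2760 CPM in control libraries, so that PINCH1 mutant libraries lay above the controls.

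**Figure D4:**
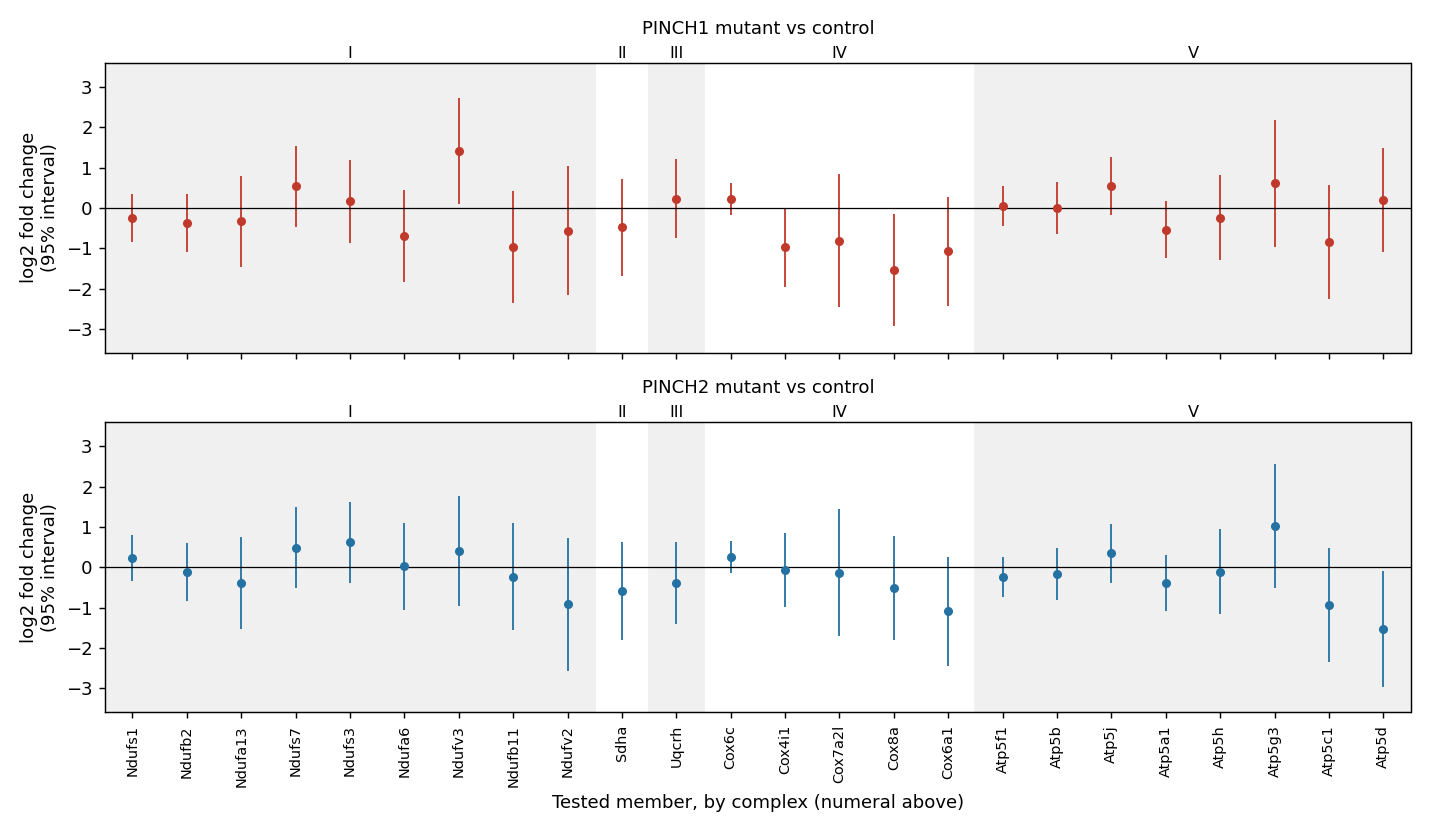
Log2 fold change of the 24 tested members with 95% confidence intervals, ordered by complex, for PINCH1 mutant against control (upper panel) and PINCH2 mutant against control (lower panel), 3 libraries a group. Both panels share the same controls; intervals are narrow for Cox6c, Atp5f1, Atp5b and Ndufs1 and reach beyond a 2-fold change for most others.

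Other genes of the pathway were read from fixed lists, and no gene of any list passed the adjusted threshold in any comparison. Of 25 assembly and supply factors outside the members, 5 were tested, with medians of -0.04 in PINCH1 mutant and -0.07 in PINCH2 mutant against control. The highest were Ttc19, an assembly factor of complex III (5628 counts over 9 libraries), and Cox15, which makes heme A for complex IV (4782 counts), and their log2 fold changes lay between -0.05 and 0.09 in both comparisons. Of 11 entries for cytochrome c and coenzyme Q synthesis, 2 were tested. Coq4 had 52, 30 and 47 counts in PINCH1 mutant, 62, 58 and 39 in PINCH2 mutant and 22, 25 and 36 in control libraries, with log2 fold changes of 0.62 (SE 0.32, edgeR adjusted p 0.778) and 0.96 (SE 0.32, edgeR adjusted p 0.999), and in CPM both mutant groups lay above the controls. Pdss1 gave -0.33 (SE 0.35) and 0.15 (SE 0.34).

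The mitochondrially encoded subunits carried far more counts than the nuclear ones. All 13 were tested, with medians of -0.20 in PINCH1 mutant against control (10 below 0), 0.01 in PINCH2 mutant against control (5 below 0) and -0.12 in PINCH1 mutant against PINCH2 mutant (11 below 0). They summed to 111850 to 124627 CPM in PINCH1 mutant, 98682 to 126268 CPM in PINCH2 mutant and 96460 to 126449 CPM in control libraries. Most of this was mt-Nd6, whose excess over mt-Cytb is given above with the limit on strand, so the sums are levels of these entries as counted and may not be levels of the named genes.

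Of 18 tricarboxylic acid cycle genes, 6 were tested, with medians of -0.28 and -0.25 in PINCH1 and PINCH2 mutants against control. Pdha1, of pyruvate dehydrogenase, gave 0.12 (SE 0.35) and 0.17 (SE 0.35). Of 15 regulators of mitochondrial biogenesis, 5 were tested, with medians of 0.10 and -0.11, and Yy1 gave -0.10 (SE 0.35) and -0.22 (SE 0.35). Of 20 glycolysis genes, 15 were tested, with medians of -0.07 and -0.18. Pfkp, the platelet form of phosphofructokinase, gave 0.01 (SE 0.18) and -0.03 (SE 0.18), and Pfkl, the liver form, gave -0.23 (SE 0.31) and 0.58 (SE 0.30, edgeR adjusted p 0.999).

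Cell type markers were read in the same libraries. The summed level of 14 myelinating Schwann cell markers was 12619 to 14086 CPM in PINCH1 mutant, 12669 to 14526 CPM in PINCH2 mutant and 16054 to 18344 CPM in control libraries, below the controls in all mutant libraries. In the fit, 13 of the 14 were below 0 in PINCH1 mutant and 11 in PINCH2 mutant against control, with 0 called. Markers of the Schwann cell lineage summed to 254 to 356 CPM in PINCH1 mutant, 315 to 415 CPM in PINCH2 mutant and 355 to 436 CPM in control libraries. The 7 nonmyelinating Schwann cell markers summed to 24.1 to 49.9 CPM in PINCH1 mutant, 49.3 to 63.9 CPM in PINCH2 mutant and 37.6 to 153 CPM in control libraries. Among them Scn7a, a sodium channel gene, had 7, 11 and 38 counts in PINCH1 mutant, 34, 30 and 30 in PINCH2 mutant and 25, 61 and 118 in control libraries, with a log2 fold change of -1.88 (SE 0.53, p 0.00292, edgeR adjusted p 0.406) in PINCH1 mutant against control. The 8 neuron markers summed to 61.4 to 135 CPM in PINCH1 mutant, 118 to 191 CPM in PINCH2 mutant and 89.3 to 189 CPM in control libraries, with Snap25 and Rbfox3 at 0. The groups overlapped for these 3 lists, and the means of PINCH1 mutants were below those of controls. The part of any of these markers in the members' values was not tested. Macrophage markers summed to 554 to 692 CPM in PINCH1 mutant, 505 to 704 CPM in PINCH2 mutant and 567 to 745 CPM in controls. Most of that sum was Csf1r, with means of 559 CPM in PINCH1 mutants, 549 CPM in PINCH2 mutants and 595 CPM in controls. Aif1 was at 0, so the sum is largely the level of 1 entry. Fibroblast markers summed to 488 to 562 CPM in PINCH1 mutant, 306 to 541 CPM in PINCH2 mutant and 394 to 760 CPM in controls.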

How the data were processed

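RNA-seq of 9 sciatic nerve libraries was analysed from the count table the authors deposited, which holds whole-number counts per gene entry, not normalized. Per the submitters' processing notes, HISAT2 2.0.5, cutadapt 1.9.1 and Trim Galore 0.4.2 were used, and the genome build was GRCm38. Which tool counted the reads, with which annotation and on which strand, was not given in the sources used here. That table has 0 value columns that could not be tied to a sample.

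Counts were fitted with edgeR 4.0.16 in R 4.3.3 (filterByExpr, TMM scaling, robust quasi-likelihood test, all 9 libraries in 1 fit on genotype), with Benjamini-Hochberg adjustment over all 4738 tested entries and a threshold of 0.05. DESeq2 1.42.0, limma 3.58.1 (voom), other scalings and filters, fits of 6 libraries, and leaving out each library were alternatives. The script was tested on simulated data. Partners are genes of GENCODE M21 with at least 1 bp of exon on the opposite strand, and their entries in place of the members were an alternative added after seeing the data. Exon lengths are those of GENCODE M21, and 95% intervals are built from the approximate SE and the degrees of freedom of the fit.

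The members, lists and tests were chosen with earlier results of these data known. Named members are the 5 with the smallest p in each comparison, the 3 highest of each complex, complex II, the paralog isoforms and their partners. Of the other lists, the 2 genes with the highest level were named, apart from any gene that is not reported here. Ndufa6, Ndufs3, Ndufs7, Ndufb5, Ndufb11, Ndufa2, Cox4nb and Scn7a were named beyond that rule, after their values or sequences were seen.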

Additional observations from a re-analysis of the deposited data

How the results depend on the processing

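No member was called in any of the 20 settings run for each comparison, with 18 to 90 members in a fit. A stricter threshold of 0.01 cannot call a member where 0.05 called none, so that setting adds no evidence. The figure of 90 includes the 4 members with no counts in any library, which could not be tested. DESeq2 may also leave members with low counts without an adjusted p. The lowest adjusted p was 0.589 in PINCH1 mutant against control, 0.852 in PINCH2 mutant against control and 0.640 in PINCH1 mutant against PINCH2 mutant. Of 962 fold changes of named members under these settings, 918 kept their sign and 44 changed it, none of them called. Over all entries, the filter mattered most: 16, 1 and 27 entries were called with a filter of 1 CPM in 3 libraries and 15, 1 and 20 with none, against 3, 1 and 4. DESeq2 called 3, 1 and 6, limma-voom 1, 0 and 3, the 6 libraries compared alone 1, 0 and 8, TMM scaling done separately for entries with and without a partner 2, 1 and 5, and fits without 1 library 1 to 9, 0 to 1 and 3 to 9. Medians are given below in the order PINCH1 mutant against control, PINCH2 mutant against control and PINCH1 mutant against PINCH2 mutant. The members' median was -0.49 to -0.032, -0.46 to -0.062 and -0.35 to 0.18 when 1 library was left out. It was -0.032 without control replicate 3 in the first comparison, -0.46 without PINCH2 mutant replicate 2 in the second, and in the third -0.35 without PINCH1 mutant replicate 1, -0.24 without PINCH2 mutant replicate 1 and 0.18 without PINCH2 mutant replicate 2. For complex I the ranges were -0.45 to -0.18, -0.089 to 0.30 and -0.46 to -0.18, for complex IV -0.98 to -0.61, -0.99 to 0.10 and -0.99 to -0.012, and for complex V -0.07 to 0.11, -0.48 to -0.18 and -0.01 to 0.28. The partner entries in place of the members had medians of 0.24 and 0.048 in the first 2 comparisons. With no filter, a filter of 1 CPM in 3 libraries and DESeq2, which test other members, the median in PINCH1 mutant against control was -0.39, -0.56 and -0.38 for complex IV and -0.23, -0.24 and -0.22 for complex V. For PINCH2 mutant against control, complex V gave -0.55, -0.54 and -0.56, and complex I 0.18 with no filter and 0.25 with 1 CPM. In PINCH1 mutant against PINCH2 mutant the 3 settings gave -0.23, -0.34 and -0.24 for all members and -0.43, -0.47 and -0.43 for complex I, and no filter gave -0.35 for complex IV. Complex IV was -0.60 in PINCH2 mutant against control and -0.081 in PINCH1 mutant against PINCH2 mutant with limma-voom, where the cause was not tested. Without the members that have a partner, the log2 ratio of the summed level in PINCH1 mutant against control was -0.086 for complex I, -0.68 for complex IV and -0.27 for complex V, that of complex IV in PINCH2 mutant against control -0.40, and that of complex V in PINCH1 mutant against PINCH2 mutant 0.027. To look for pairing, each tested entry's log2 CPM was taken as a deviation from its group mean. These deviations were correlated between libraries of different groups, at -0.11 to 0.25 for same-numbered libraries and -0.20 to 0.14 for others. These ranges overlap, and with 3 libraries a group they cannot show whether the numbers pair the samples. With a replicate block 0 members were called in each comparison, 5, 0 and 6 entries were called in all, and the members' median was -0.22, -0.18 and -0.02. Low counts kept 66 of the 90 members out of the main test. For 20, 18 and 18 of the 24 tested, the 95% interval, which also holds the spread between pools, reached beyond a 2-fold change.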
